A study of Mus musculus with 2 samples.

Results

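The interferon-stimulated genes described here are 39 genes named as a list by symbol, all of which were above 0 UMIs in both libraries, out of 21855 gene names in the matrix. They were followed as single genes and as a summed score across cell classes in a single-cell RNA-seq comparison of mouse kidney. The control library came from wild-type mouse kidney after the control treatment, and the FA library from wild-type mouse kidney with folic acid (FA)-induced nephropathy. Folic acid at a high dose injures the renal tubule of mice, and the study asks about the pore-forming proteins GSDMD and GSDME in that injury. No source used here gives the dose, the time after FA, the age or the number of animals behind a library. There was 1 library in each group, so no difference below has a replicate check and none was tested. Intervals are 95% and cover counting error only. Barcodes in the matrix carry the prefix FA3 or C3. The FA3 prefix matches the FA label, and C3 was taken as the control because only that label remained, since no source spells the letter out.

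Interferons are cytokines that cells release when they sense nucleic acids or other signs of infection or damage. Type I interferon binds the receptor IFNAR1/IFNAR2 and sends a complex that includes STAT2 and IRF9 to the interferon-stimulated response element (ISRE) of target promoters. Interferon gamma, made by T cells and NK cells, binds IFNGR1/IFNGR2 and acts through a different element, the gamma-activated site (GAS). The targets include RNA sensors, enzymes and membrane proteins that block viruses, GTPases that act on vacuoles of intracellular microbes, and the transcription factors that keep the response going.

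Stretches of promoter are shown for 8 members whose results recur below and whose promoter held a match to a response element. Other members that recur are not printed. Of these, Irf7, Slfn4, Ifitm1, Ifi44, Cmpk2, Oasl1 and Xaf1 held neither motif in the window searched. Some held an ISRE match, among them Ifitm3, Slfn5 and Igtp, and some had no window. Each sequence is from RefSeq (GRCm38.p6), is written 5′ to 3′ on the gene's own strand, lies upstream of the annotated transcription start site and has each match to the named motif in capitals. The ISRE core was searched as GAAA, any 2 bases and GAAA, which reads TTTC, any 2 bases and TTTC on the other strand. The GAS was searched as TTC, any 3 bases and GAA, which reads the same on both strands. In the Bst2 stretch a GAS match, left in lower case where it lies outside the ISRE, overlaps the ISRE matches, and in the other stretches printed the motifs do not overlap.
Isg15, chr4:156200845-156200914, minus strand, 3 overlapping ISRE matches: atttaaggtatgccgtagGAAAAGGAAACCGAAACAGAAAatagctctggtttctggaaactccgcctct
Ifit1, chr19:34640774-34640843, plus strand, 2 ISRE matches: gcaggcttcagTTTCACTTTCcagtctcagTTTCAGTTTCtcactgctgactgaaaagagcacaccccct
Ifit3, chr19:34583377-34583446, plus strand, 1 ISRE match: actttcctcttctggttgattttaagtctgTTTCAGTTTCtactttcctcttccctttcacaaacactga
Ifit3b, chr19:34607773-34607842, plus strand, 1 ISRE match: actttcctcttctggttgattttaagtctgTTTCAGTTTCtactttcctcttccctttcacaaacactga
Rsad2, chr12:26456533-26456602, minus strand, 1 ISRE match: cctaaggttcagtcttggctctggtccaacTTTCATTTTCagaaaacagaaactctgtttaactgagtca
Bst2, chr8:71537557-71537626, minus strand, 2 overlapping ISRE matches: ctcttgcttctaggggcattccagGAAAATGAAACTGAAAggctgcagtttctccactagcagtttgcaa
Gbp2, chr3:142620574-142620643, plus strand, 1 ISRE match: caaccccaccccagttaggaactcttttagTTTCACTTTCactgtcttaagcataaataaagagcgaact
Irf1, chr11:53769894-53769962, plus strand, GAS: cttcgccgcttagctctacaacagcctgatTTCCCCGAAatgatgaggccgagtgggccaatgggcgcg

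A promoter window of 300 bases was found for 32 of the 39 members. The ISRE core was present in 19 of the 32 (59.4%), against 1079 of 27025 genes with a window (3.99%). The GAS was present in 8 of the 32 (25%), against 9.55% of all genes. The printed stretches of Ifit3 and Ifit3b are identical letter for letter. The genes are near copies, reads may be split between them, and their separate values are uncertain. Whether a promoter held the ISRE core did not order the members by their FA over control ratio: over the whole library, the median log2 ratio was 1.16 for the 19 with it and 1.47 for the 13 without. These matches describe the letters in the window and no factor's binding was measured.

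The matrix held 9681 control barcodes with 63646459 UMIs (unique molecular identifiers, 1 per counted transcript molecule) and 18997 FA barcodes with 84138607 UMIs, and 54 barcode sequences occurred in both libraries. After a filter on cells and removal of likely doublets, 5807 control cells (median 4814 UMIs) and 13502 FA cells (median 2899 UMIs) were kept. The clusters were named from marker genes, without the members or the pathway genes among the genes that clustered the cells, and a class is called "X-like" because its name was rebuilt here. A class was compared where both libraries had at least 50 of its cells, which left 12 classes. Neutrophil-like cells (409 in FA, 1 in control), NK cell-like cells (476 and 39) and injured tubule-like cells (378 and 1) were too few in the control library to compare. Xist stood at 1175 CPM (UMIs per 1000000 UMIs of the same cells) in the FA library and at 0.274 CPM in the control. The Y-linked genes Ddx3y, Eif2s3y, Kdm5d and Uty were at 18.9 to 79.1 CPM in control and had 0 UMIs in FA. By these genes the control library was male and the FA library female. Sex and FA cannot be told apart in any result below.

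Levels are given as CPM. The score is the sum over all 39 members. Ifitm3 and Ifi27l2a each held more than 10% of its UMIs, so the sum over the other 37 members, called the core sum, is given beside it. A ratio is FA over control, and a member is counted as higher at a ratio of at least 1.5 and as lower at most at its inverse.

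Over all kept cells, most interferon-stimulated genes were higher in the FA library. The score was 1955 CPM in control and 6460 CPM in FA (ratio 3.305, interval 3.28 to 3.33), and the core sum was 1219 and 3093 CPM (ratio 2.54). Of the 39 members 30 were higher, where 20.4% of all 18072 genes measured were higher, and 2 were lower, where 30.5% of all genes were. The members' median log2 ratio was 1.35, against -0.11 over all genes measured. The 2 lower members were Rsad2 and Ifi44, and both are described with the endothelium below.

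**Figure D1:**
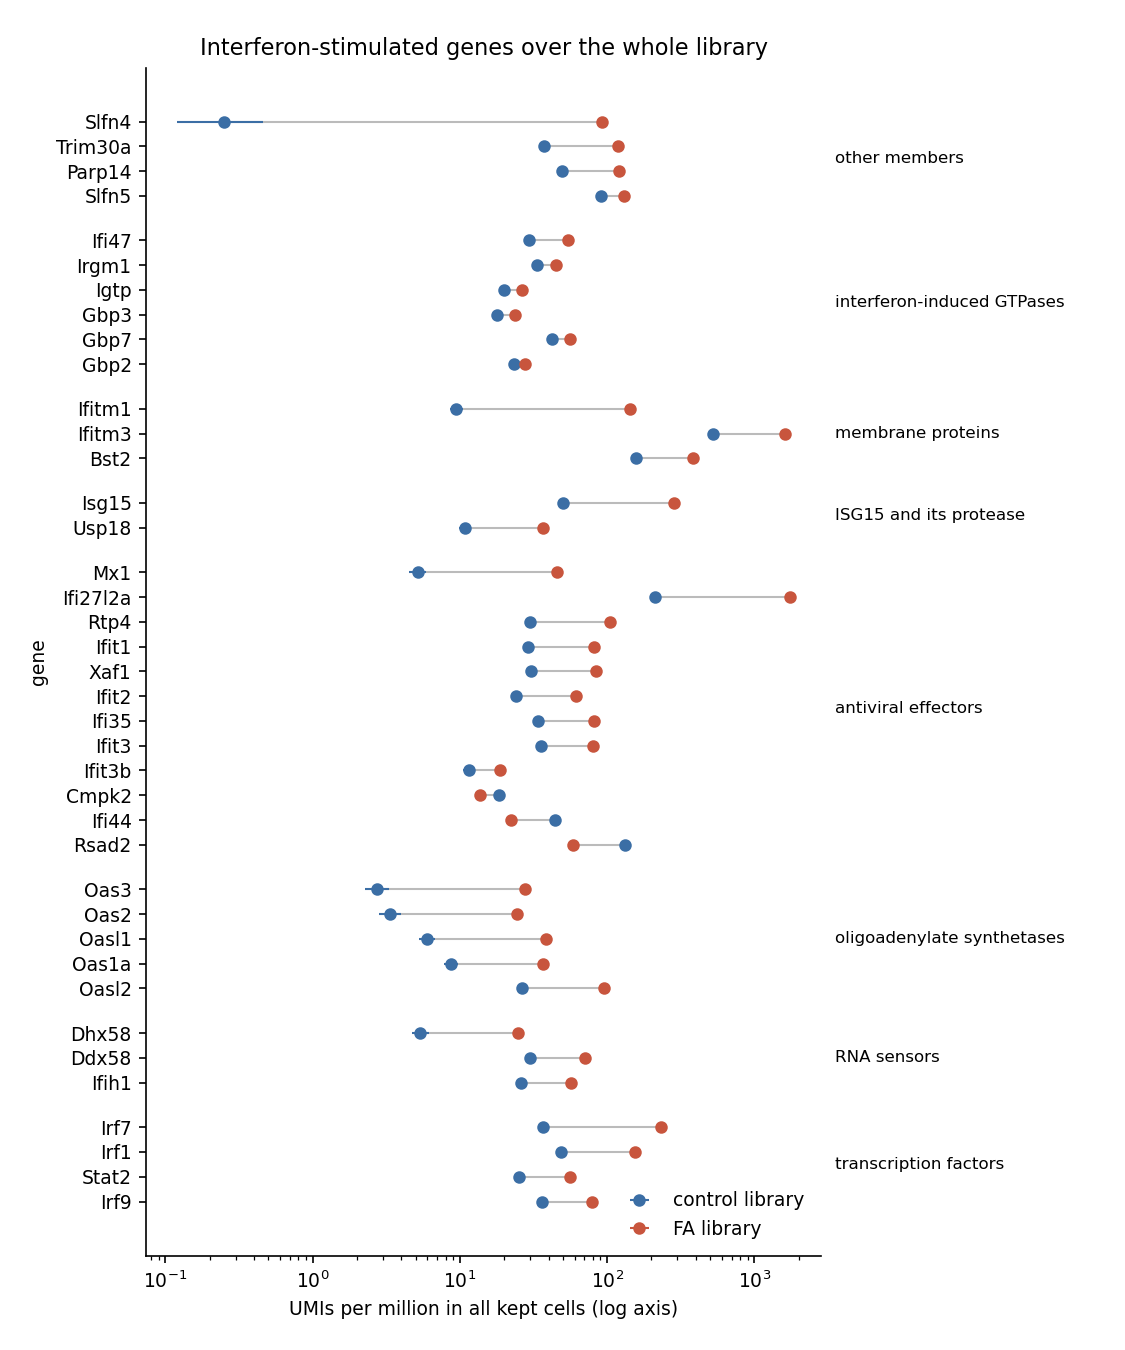
Level of each of the 39 interferon-stimulated genes in all kept cells of the control (blue) and FA (red) library, in CPM on a log axis, grouped by role, with exact Poisson 95% intervals. The red point lies to the right for all but Rsad2, Ifi44 and Cmpk2, and among the interferon-induced GTPases all pairs but that of Ifi47 lie closer together than the fold of 1.5.

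The transcription factors that carry the response were all higher (4 of 4). Irf7, which amplifies type I interferon production, was at 36.7 CPM in control and 233.8 in FA (ratio 6.38, interval 6.04 to 6.74). Irf1, a direct target of interferon gamma signalling, was at 48.7 and 155.5 CPM (ratio 3.19). Irf9 and Stat2, subunits of the complex that binds the ISRE, had ratios of 2.17 and 2.24.

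All 3 RNA sensors were higher as well, with Dhx58 at a ratio of 4.58, Ddx58 (RIG-I) at 2.37 and Ifih1 (MDA5) at 2.17. The 5 oligoadenylate synthetases, which make the second messenger that switches on RNase L, ranged from 3.60 for Oasl2 to 10.1 for Oas3. Their summed level was 47.2 CPM in control and 222.4 CPM in FA.

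Among the 12 antiviral effectors 9 were higher. Ifi27l2a was at 212.4 CPM in control and 1750 CPM in FA (ratio 8.24, interval 8.06 to 8.42). Mx1, a dynamin-like GTPase that blocks influenza viruses, had the highest ratio of the group (5.16 and 45.4 CPM, ratio 8.80). The IFIT genes, whose proteins bind viral RNA, ranged from 1.63 for Ifit3b to 2.79 for Ifit1. Isg15, a ubiquitin-like modifier, was at 49.8 and 286.4 CPM (ratio 5.75), and Usp18, the protease that removes it, had a ratio of 3.40.

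The 2 highest ratios of the list were those of Slfn4 and Ifitm1. Slfn4, a myeloid member of the Schlafen family, had 10 UMIs in all kept control cells and 5254 in FA (0.249 and 92.2 CPM, ratio 370, interval 201 to 772). Ifitm1, a membrane protein that hinders viral entry, was at 9.43 and 141.9 CPM (ratio 15.1). Neutrophil-like cells, dendritic-like cells and macrophage-like cells held most of these UMIs in the FA library: 60.4% of Ifitm1 was dendritic-like and 29.1% neutrophil-like, and 40.7% of Slfn4 was macrophage-like and 24.3% neutrophil-like.

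The makeup of the libraries differed along with these levels. Endothelial-like cells numbered 946 in control and 103 in FA, and proximal tubule-like cells 2152 and 486. The last count leaves out an unnamed cluster of 4 control and 1100 FA cells (cluster 4) whose nearest class was the proximal tubule. When the control levels of the 12 compared classes were weighted by each class's share of the FA library's UMIs, the score was 1.39 times that of the control library, and the core sum was 1.10 times. When FA levels were weighted by the control makeup, the score was 2.30 times and the core sum 2.01 times the control value. The measured ratio over these classes was 3.57 for the score and 2.56 for the core sum. The 12 classes held 89.3% of control and 74.96% of FA UMIs, and the neutrophil-like cells and unnamed clusters of the FA library did not enter these values.

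Within the control library the level of these genes was highest in the endothelium. Endothelial-like cells had a score of 8833 CPM in control, beside 8831 CPM in the 60 monocyte-like cells, and the highest control core sum, 6072 CPM against 2529 in monocyte-like cells and 2067 in macrophage-like cells. In FA the endothelial core sum was 9723 CPM (ratio 1.60, interval 1.54 to 1.66). Of 36 members measured in this class 25 were higher, against 16.5% of all genes measured, and 0 were lower, against 20.7%. At a fold of 2, 10 members were higher. The members' median log2 ratio was 0.79, against 0.01 over all genes.

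Rsad2 (viperin), an enzyme that makes a chain-terminating nucleotide, was at 1152 CPM in control endothelial-like cells and 1132 CPM in FA (ratio 0.983, interval 0.878 to 1.10). Its library level was 131.9 CPM in control and 59.0 in FA, and 95.2% of its control UMIs were endothelial-like. Without the endothelial class, Rsad2 was at 7.14 CPM in control and 53.3 CPM in FA, a ratio of 7.46 (interval 6.57 to 8.51). The library-level deficit of Rsad2 was thus not seen in the cells that held it or in the remaining cells.

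The same arrangement held for Ifi44, an interferon-induced cytoplasmic protein. It was at 43.9 CPM in the control library and 22.2 in FA, with 95.3% of its control UMIs in endothelial-like cells. Within that class it was at 384.3 and 720.4 CPM (ratio 1.87), and without it at 2.29 and 18.5 CPM (ratio 8.07). Cmpk2, a mitochondrial nucleotide kinase that lies beside Rsad2 in the genome, had a library ratio of 0.742, an endothelial ratio of 0.80 (interval 0.513 to 1.197) and a ratio of 1.67 without the endothelium. With endothelial-like cells left out, a choice made after seeing the data, 39 of 39 members were higher over the remaining cells, against 23.3% of all genes. None was lower, against 28.3%. The remaining cells still differed in makeup. Proximal tubule-like cells, with a control core sum of 140.5 CPM, numbered 2152 in control and 486 in FA. This count therefore does not separate makeup from level. It includes all 6 interferon-induced GTPases, whose ratios within classes are given below.

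The endothelial members with the highest ratios were Isg15 (230.3 and 743.6 CPM, ratio 3.23, interval 2.78 to 3.74), Irf7 (184.3 and 531.1 CPM, ratio 2.88), Ifi27l2a (ratio 2.51) and Ifit3 (ratio 2.45). The lowest, beside Cmpk2 and Rsad2, were Slfn5 (548.2 and 504.6 CPM) and Ifi47 (71.9 and 69.7 CPM), whose intervals included 1. Both endothelial clusters gave like core ratios, 1.57 for the cluster of 825 control and 75 FA cells and 1.69 for that of 121 and 28 cells.

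**Figure D2:**
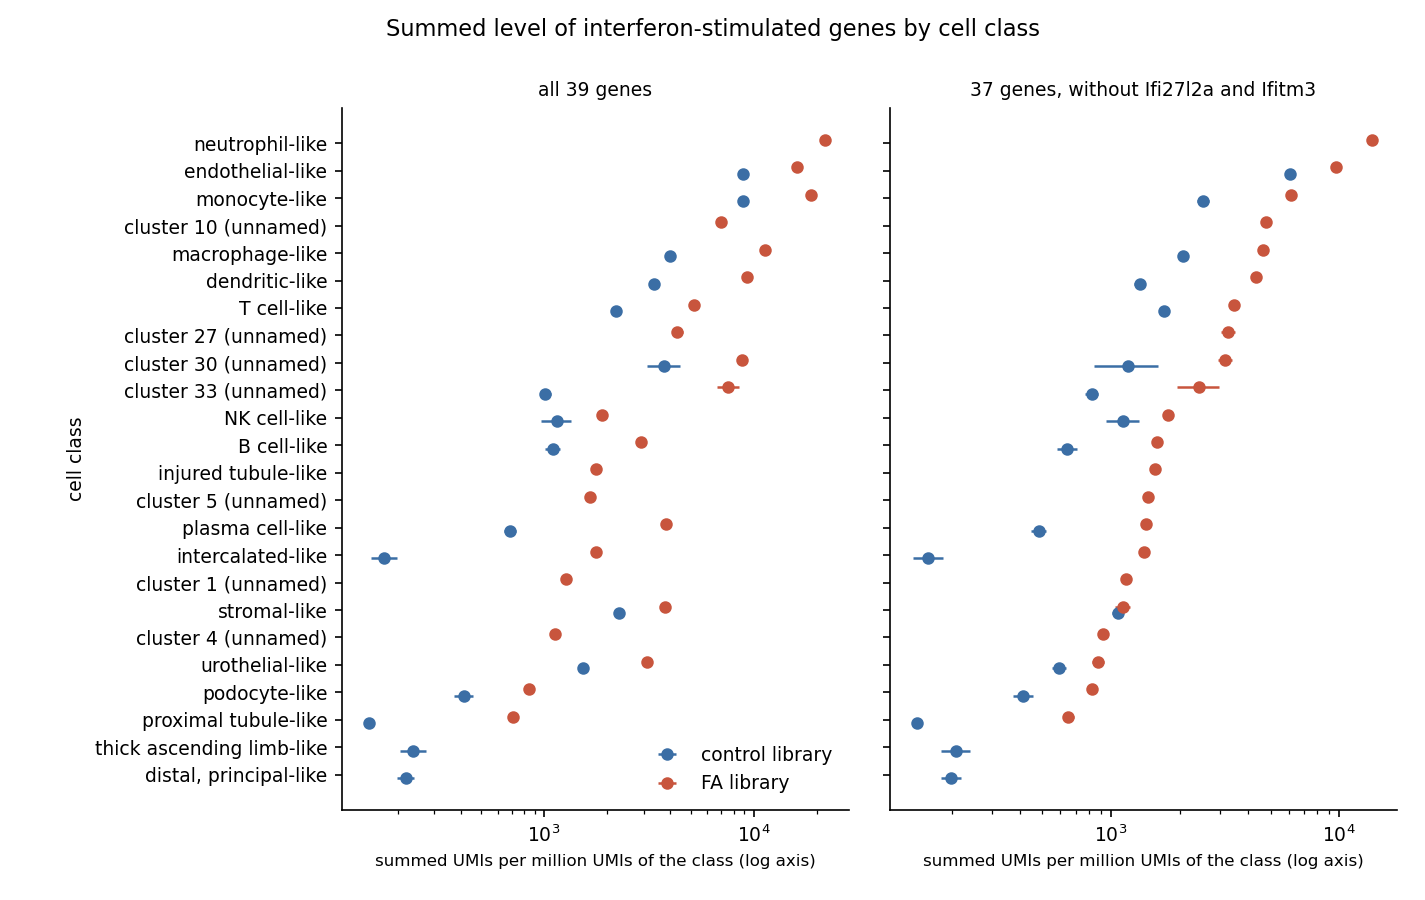
Summed level of the interferon-stimulated genes in each cell class of the control (blue) and FA (red) library, in CPM on a log axis with exact Poisson 95% intervals, for all 39 genes (left) and for 37 genes without Ifi27l2a and Ifitm3 (right). Classes and libraries with under 20 cells are left out, the FA point lies to the right in each class that has both, and the stromal-like pair touches in the right panel.

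In myeloid cells the list was higher as a whole. Macrophage-like cells (677 in control, 1640 in FA) had a score of 3997 CPM in control and 11289 CPM in FA (ratio 2.82, interval 2.78 to 2.87), and a core sum of 2067 and 4637 CPM. Of 39 members measured 28 were higher, against 27% of all genes, and 2 were lower, against 21.8%. Members had a median log2 ratio of 1.01, all genes 0.07. The control cells of this class lay mostly in 1 cluster and the FA cells in 2 others, whose core sums were 2005 CPM (control) and 5039 and 4010 CPM (FA).

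Slfn4 had 1 UMI in the control macrophage-like cells and 2136 UMIs in FA (0.234 and 162.3 CPM, ratio 694, interval 124 to 27421). Irf7 was at 67.3 and 421.1 CPM (ratio 6.25, interval 5.55 to 7.06), Oasl1 at 13.3 and 67.3 CPM (ratio 5.05) and Isg15 at 89.1 and 406 CPM (ratio 4.56). At the other end were Gbp2 (33.4 and 14.6 CPM, ratio 0.436, interval 0.350 to 0.546) and Gbp3 (54.2 and 31.2 CPM, ratio 0.576), guanylate-binding proteins that assemble on microbial membranes. Igtp (ratio 0.9603) and Irf9 (ratio 1.005) had intervals that included 1.

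Monocyte-like cells had the highest FA score of the compared classes. It was 8831 CPM in 60 control cells and 18767 CPM in 584 FA cells (ratio 2.12), and the core sum was 2529 and 6138 CPM (ratio 2.43). Of 39 members 33 were higher, against 17% of all genes, and 1 was lower, against 23.4%. Their median log2 ratio was 1.27, against -0.10 over all genes. The lower member was Gbp3 (54.8 and 31.3 CPM, ratio 0.571, interval 0.359 to 0.949).

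Ifi27l2a and Ifitm3 made up most of the monocyte-like score. Ifi27l2a was at 1610 and 5422 CPM (ratio 3.37) and Ifitm3 at 4692 and 7206 CPM (ratio 1.54). Slfn4 had 2 UMIs in control and 978 in FA (ratio 56.9, interval 15.7 to 470), and Ifi44 had 2 and 178 (ratio 10.3, interval 2.83 to 86.2). Ifit1 was at 9.97 and 83.8 CPM (ratio 8.41, interval 3.25 to 31.1). Ifitm1 had 0 UMIs in control (interval up to 9.19 CPM) and 289 in FA (83.8 CPM), 11.2-fold higher when the control is set at a floor of 3 counts.

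Dendritic-like cells had a core sum of 1336 CPM in 106 control cells and 4335 CPM in 722 FA cells (ratio 3.25, interval 3.07 to 3.44), the highest core ratio of the myeloid classes. Of 39 members 30 were higher, against 21.6% of all genes, and 1 was lower, against 17.6%. Their median log2 ratio was 1.58, against 0.08 over all genes. Gbp2 was again the lower one (41.5 and 16.9 CPM, ratio 0.407, interval 0.278 to 0.606).

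Ifitm1 had 0 UMIs in the control dendritic-like cells (interval up to 3.83 CPM) and 4886 UMIs in FA (907.5 CPM), 291.5-fold higher on the same floor. Oasl1 had 1 and 288 UMIs (ratio 51.5, interval 9.18 to 2043) and Rsad2 had 5 and 495 (ratio 17.7, interval 7.54 to 54.8). Ifit3b had 1 and 71 UMIs (ratio 12.7, interval 2.21 to 509). Among members with at least 50 UMIs in the library with the higher level, Igtp, Stat2, Ifi47 and Irf9 had the lowest ratios, from 1.30 to 1.38.

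Neutrophil-like cells, which the control library lacked apart from 1 cell, had the highest level of any class. Their FA score was 21718 CPM and their core sum 13857 CPM. Isg15 was at 2127 CPM, against 743.6 in FA endothelial-like cells, Ifitm1 at 3220 CPM and Slfn4 at 1750 CPM. They also held the highest FA levels of Ifit3 (619.9 CPM), Oasl2 (619.9 CPM), Rtp4 (567.9 CPM) and Trim30a (529.6 CPM), and Rsad2 (567.9 CPM) was second to the endothelium.

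**Figure D3:**
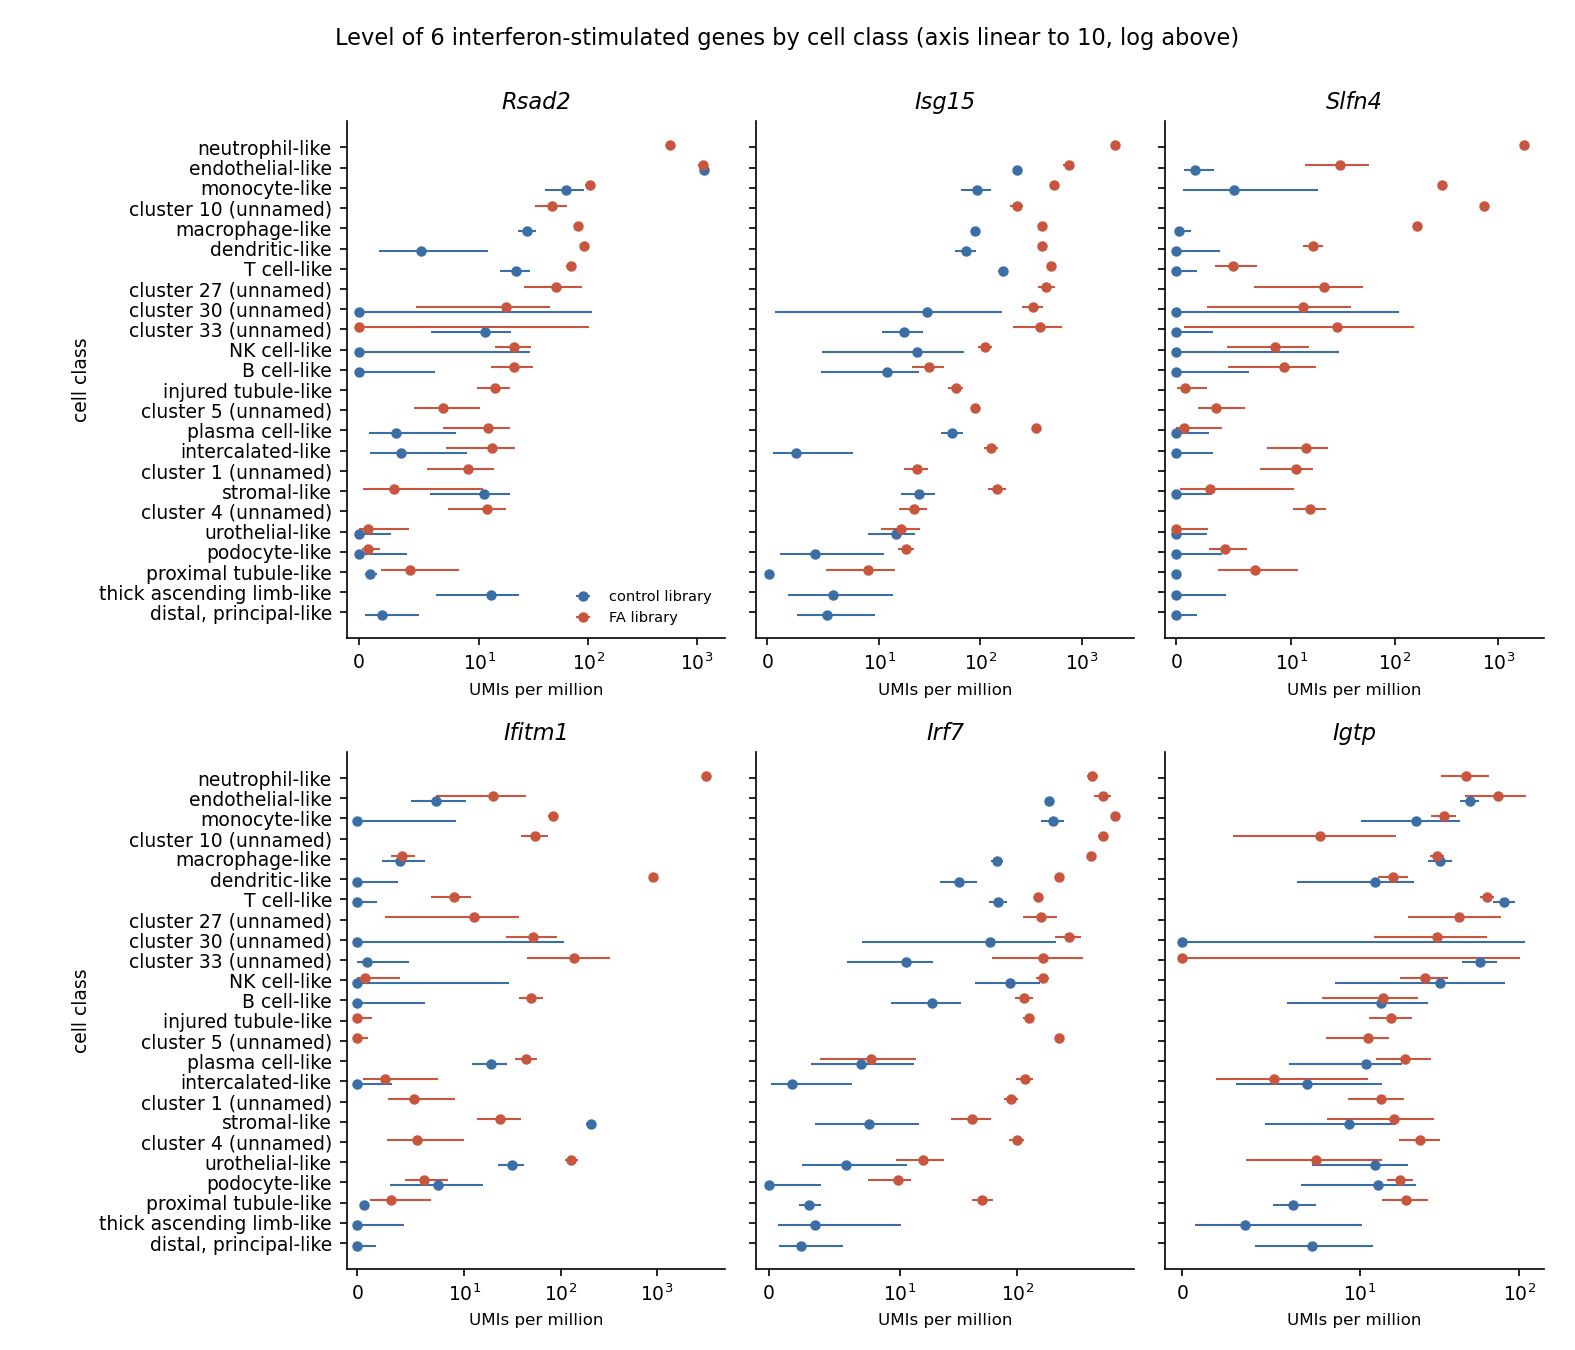
Level of 6 interferon-stimulated genes in each cell class of the control (blue) and FA (red) library, in CPM with exact Poisson 95% intervals, on axes linear to 10 and logarithmic above. Rsad2 sits highest in endothelial-like cells at the same value in both libraries, Slfn4 and Ifitm1 reach their highest values in FA neutrophil-like cells, and Igtp shows overlapping pairs in macrophage-like and dendritic-like cells.

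In the lymphoid classes most measured members were higher as well. T cell-like cells had a core sum of 1702 CPM in 553 control cells and 3455 CPM in 2053 FA cells (ratio 2.03, interval 1.96 to 2.10). Of 39 members 30 were higher, against 15.3% of all genes, and 0 were lower, against 16.7%. The median log2 ratio was 1.14 over members and -0.06 over all genes. The 3 T cell-like clusters had core ratios of 1.99, 2.03 and 2.04.

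In T cell-like cells the highest ratios were those of Usp18 (7.51 and 41.7 CPM, ratio 5.56, interval 3.31 to 10.1), Ifit3 (28.1 and 126.4 CPM, ratio 4.51) and Ifit3b (ratio 4.25), and Ifitm1 had 0 UMIs in control and 57 in FA. The 4 lowest were all GTPases: Ifi47 (198.9 and 143.3 CPM, ratio 0.720, interval 0.639 to 0.813), Igtp (80.7 and 62.8 CPM, ratio 0.779, interval 0.647 to 0.941), Irgm1 and Gbp7. T cell-like cells held the highest Ifi47 level of the classes in both libraries.

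B cell-like cells had a core sum of 642.9 CPM in control and 1590 CPM in FA (ratio 2.47). Of 30 members measured 24 were higher, against 19% of all genes, and 1 was lower, against 14.7%. The median log2 ratio was 1.45 over members and 0.03 over all genes. Ifitm3 had 4 control and 74 FA UMIs (ratio 10.2, interval 3.80 to 38.2) and Irf7 was at 18.8 and 115 CPM (ratio 6.13). The lower member, Gbp3, rested on 14 and 17 UMIs (ratio 0.666, interval 0.309 to 1.46).

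Plasma cell-like cells differed in their background. Of 20 members measured 17 were higher and 0 lower, but 59.7% of all genes were higher in this class and 4.85% lower, and the median log2 ratio over all genes was 0.74, against 1.57 over members. The fixed plasma markers (Jchain, Mzb1, Sdc1, Igkc and Derl3) made up 522500 CPM in control and 354400 in FA. Ifi27l2a was at 144.1 and 1960 CPM (ratio 13.6, interval 11.7 to 15.9), and the core sum had a ratio of 2.94.

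The compared tubule classes had low levels in control and high ratios. Proximal tubule-like cells had a core sum of 140.5 CPM in 2152 control cells and 650.9 CPM in 486 FA cells (ratio 4.63, interval 4.32 to 4.96). Of 31 members measured 26 were higher, against 30.8% of all genes, and 1 was lower, against 24%. On the log2 scale the median ratio was 2.27 over members and 0.13 over all genes. The control and FA cells of this class lay in separate clusters. The values do not cover cluster 4, which was nearest to the proximal tubule but unnamed. Its 1100 FA cells had a core sum of 924.1 CPM.

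Bst2 (tetherin), which holds budding virions at the cell surface, was at 5.37 CPM in control and 109.2 in FA (ratio 20.3, interval 15.8 to 26.3). Ifitm3 was at 3.002 and 57.0 CPM (ratio 19.0), Irf7 at 3.06 and 50.6 CPM (ratio 16.5) and Parp14 at 3.52 and 53.8 CPM (ratio 15.3). Cmpk2 was the lower member (10.05 and 6.33 CPM, ratio 0.630), with an interval of 0.319 to 1.13. Ifi47 and Irgm1 had ratios of 0.717 and 1.12, and both intervals included 1.

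Markers of immune cells were present at low levels beside these tubule values. In FA proximal tubule-like cells 7 of 8 macrophage markers were above 0 and C1qb was at 0. Apoe alone was at 834.4 CPM in FA and 609.5 CPM in control. The list summed to 1054 CPM in FA and 805.1 CPM in control, so it mostly follows Apoe in both libraries. The macrophage list stood at 21.4% of its level over the whole FA library, and the core sum at 21.0%. Among single members that percentage was 28.5% for Bst2, 21.6% for Irf7, 3.13% for Isg15 and 0% for Ifi27l2a, which had 0 UMIs there and 1750 CPM over the library. T cell markers summed to 3.29 CPM in control and 13.2 CPM in FA, with 8 of 8 above 0 in both, and monocyte markers to 28.8 and 70.7 CPM, with Plac8 highest in both. Neutrophil markers summed to 2.14 and 2.11 CPM, with S100a8 and S100a9 at 0 in FA. The part of RNA from other cells in the tubule values was not tested.

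The 378 injured tubule-like cells of the FA library (1 in control) had a core sum of 1562 CPM, above the FA proximal tubule-like value. Ddx58 (113.9 CPM) and Irgm1 (88.7 CPM) reached levels close to the highest of any class, while Ifi27l2a and Ifitm1 had 0 UMIs. Of 8 macrophage markers 4 were above 0 in these cells, summing to 893.4 CPM with Apoe at 656.1 CPM, and C1qa, C1qb, Adgre1 and Ms4a7 were at 0. The monocyte list summed to 268.5 CPM, with Plac8 at 259.8 CPM. The part of RNA from other cells in these values was not tested either.

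Intercalated-like cells had the highest ratio of the compared classes. The core sum was 157.9 CPM in 174 control cells and 1399 CPM in 513 FA cells (ratio 8.86, interval 7.59 to 10.4). All 26 members measured were higher, against 32.5% of all genes, and 0 were lower, against 27.5%. The median log2 ratio was 3.58 over members and 0.10 over all genes. The FA cells of this class were shallower (median 1427 UMIs, against 4927 in control). They were also weaker in their markers, with 3 of 7 markers in at least 5% of cells against 7 of 7, and 3305 marker CPM against 11380. With likely doublets kept, the class held 159 control and 259 FA cells. A thick ascending limb-like cluster then held 130 and 414 cells, against 106 and 7 with doublets left out. Which tubule segments the FA cells came from was not tested.

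In this class Isg15 had 3 UMIs in control and 149 in FA (ratio 48.8, interval 16.4 to 239), Irf7 had 2 and 134 (ratio 65.9, interval 17.9 to 549) and Xaf1, a pro-apoptotic target of interferon, had 1 and 69 (ratio 67.8, interval 11.8 to 2718). Ifit3 was at 7.02 and 138.9 CPM (ratio 19.8). The lowest ratio was that of Irgm1 (28.1 and 44.0 CPM, ratio 1.57, interval 0.988 to 2.52). Macrophage markers were lower in FA than in control cells of this class (156.1 and 454.5 CPM), and the monocyte list was higher (293.3 and 20.2 CPM), with Plac8 at 281.2 CPM and Chil3 and Vcan at 0. T cell markers were higher (26.7 and 5.26 CPM), with 8 of 8 above 0 in FA and 3 of 8 in control. Neutrophil (6.04 and 3.51 CPM) and B cell markers (5.18 and 3.51 CPM) were slightly higher. Dendritic (442.5 and 888.8 CPM) and endothelial markers (19.0 and 28.1 CPM) were lower. How much RNA from other cells these values hold was not tested. With cells restricted to those with an intercalated marker UMI, the score's log2 ratio was 3.66, against 3.36 over the whole class.

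Podocyte-like cells had a core sum of 413.3 CPM in 76 control cells and 827.3 CPM in 871 FA cells (ratio 2.002, interval 1.80 to 2.23). Of 29 members measured 16 were higher, against 13.9% of all genes, and 2 were lower, against 12.3%. The median log2 ratio was 0.89 over members and -0.01 over all genes. Irf1 was at 44.2 and 285.2 CPM (ratio 6.45, interval 4.73 to 9.01) and Irf9 at 10.8 and 44.7 CPM (ratio 4.14). The lower members were the near copies Ifit3 (65.8 and 21.5 CPM, ratio 0.327, interval 0.241 to 0.449) and Ifit3b (ratio 0.191, interval 0.0907 to 0.411). Ifitm3 and Ifi27l2a, which hold the most UMIs of the score in the other classes together, had 0 UMIs in control podocyte-like cells and 83 and 53 in FA.

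Urothelial-like cells, 75 in control and 97 in FA, had 10 of 25 measured members higher, against 10.8% of all genes, and 3 lower, against 20.1%. The median log2 ratio was 0.50 over members and -0.09 over all genes. Ifitm1 was at 30.9 and 129.1 CPM (ratio 4.17, interval 2.96 to 5.997), Xaf1 at 9.58 and 39.04 CPM (ratio 4.08) and Ifitm3 at 941.5 and 2212 CPM (ratio 2.35). Slfn5 was lower (44.2 and 24.8 CPM, ratio 0.561, interval 0.355 to 0.871), and the GTPases Ifi47 and Igtp were counted as lower with intervals that included 1. Isg15, higher in every other compared class, was at 14.7 and 16.5 CPM here (ratio 1.12, interval 0.584 to 2.17).

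Stromal-like cells gave a result that turned on which cells were in the class. Of 27 members measured 13 were higher, against 11% of all genes, and 4 were lower, against 26.5%. The core sum was 1070 CPM in 189 control cells and 1123 CPM in 129 FA cells (ratio 1.05, interval 0.957 to 1.15). A cluster of 53 control cells without any FA cell had a core sum of 2741 CPM. In the other cluster, which held 136 control and 129 FA cells and was led by Ren1 and Acta2, the core sum was 623.9 and 1123 CPM (ratio 1.80, interval 1.61 to 2.01). There 17 of 23 measured members were higher, against 13% of all genes, and 1 was lower, against 21%.

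Ifitm1 was the member that stayed lower in that cluster (102.5 and 23.7 CPM, ratio 0.231, interval 0.127 to 0.395). It was at 207 and 23.7 CPM over the whole class. Slfn5 had a ratio of 0.214 over the class and 0.676 (interval 0.435 to 1.03) within the shared cluster. Isg15 was higher both ways, with ratios of 5.93 and 6.47, and so was Ifitm3, at 1015 and 2547 CPM over the class.

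**Figure D4:**
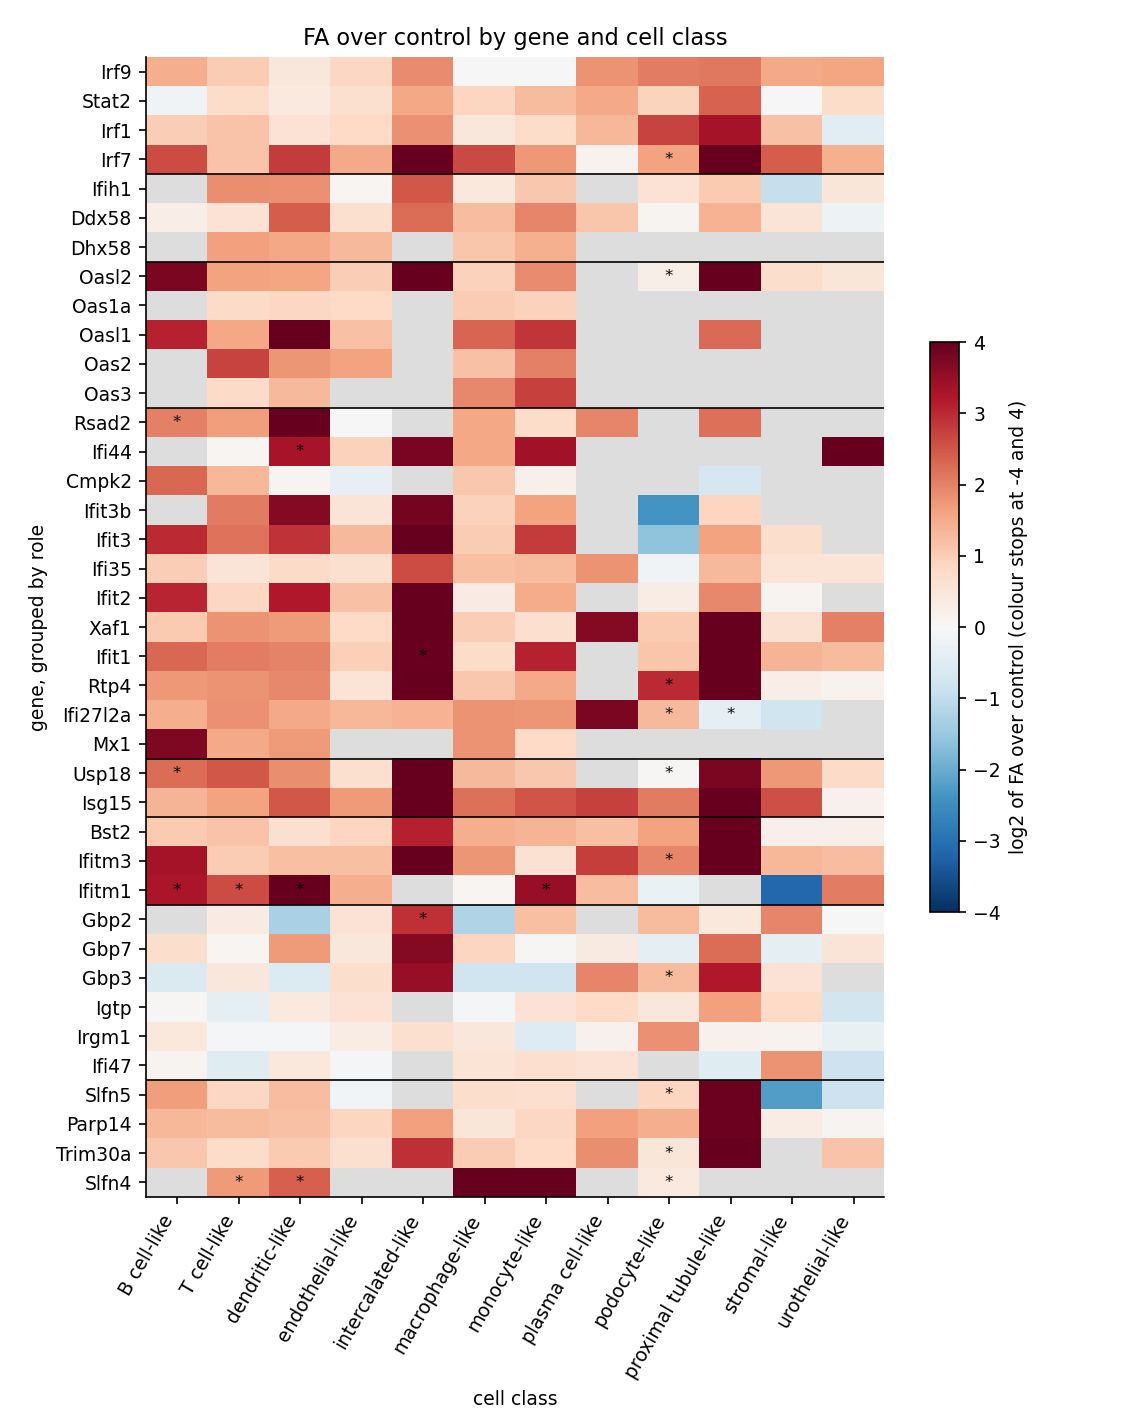
FA over control ratio of each interferon-stimulated gene in each compared cell class, as log2 with the colour scale cut off at its ends, red higher in FA and blue lower. Rows are grouped by role, grey marks genes with under 20 UMIs over both libraries in the class, and an asterisk marks a ratio computed against a floor of 3 counts because 1 library had 0 UMIs. The rows of the GTPases are among the palest in the immune columns, and the intercalated-like and proximal tubule-like columns are the darkest.

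In the compared immune classes other than plasma cell-like cells, the roles separated most clearly at the interferon-induced GTPases (Gbp2, Gbp3, Gbp7, Igtp, Irgm1 and Ifi47). Interferon gamma induces these genes strongly. Their summed ratio was 0.90 in T cell-like, 1.06 in macrophage-like, 1.08 in dendritic-like, 1.10 in monocyte-like and 1.16 among B cell-like cells. In the same classes the sum of Isg15 and Usp18 had ratios of 3.14, 4.11, 5.22, 4.85 and 4.62, and the oligoadenylate synthetases 2.31, 2.31, 3.14, 3.76 and 8.78. Of the 6 GTPases, 0 were higher and 0 lower in T cell-like cells, 1 and 2 in macrophage-like cells, 1 and 1 in dendritic-like cells, and 2 and 1 in monocyte-like cells. Over all genes 15.3% were higher and 16.7% lower in T cell-like cells, 27% and 21.8% in macrophage-like, 21.6% and 17.6% in dendritic-like and 17% and 23.4% in monocyte-like cells, so counts out of 6 do not set the GTPases apart from other genes. In plasma cell-like cells the GTPase sum had a ratio of 1.735 (interval 1.27 to 2.40), beside 1.975 for the RNA sensors and 6.81 for the Isg15 and Usp18 sum. There 3 of 5 measured GTPases were higher, against 59.7% of all genes, and 0 were lower, against 4.85%. In proximal tubule-like cells the GTPase sum had a ratio of 1.87 and in intercalated-like cells 3.47, below the 22.5 and 42.0 of the Isg15 and Usp18 sum. The GTPases were not the lowest role in every class. Their ratio was 1.36 in podocyte-like cells (antiviral effectors 1.06) and 1.40 in stromal-like cells (antiviral effectors 0.959). In endothelial-like cells it was 1.36, beside 1.38 for the RNA sensors and 1.26 for the other members.

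The members were also counted cell by cell, after each cell was thinned at random to 1000 UMIs so that depth was equal. The share of macrophage-like cells with at least 5 UMIs of the 37 core genes was 9.94% in control (exact binomial interval 7.77 to 12.5) and 44.9% in FA (42.4 to 47.3). In monocyte-like cells it was 18.6% (9.69 to 30.9) and 61.6% (57.5 to 65.6), in dendritic-like cells 7.62% (3.35 to 14.5) and 39.3% (35.7 to 43.0), and in T cell-like cells 6.40% (4.50 to 8.79) and 24.2% (22.4 to 26.1). Without thinning these shares were 74.2% and 98.5%, 78.3% and 98.5%, 75.5% and 97.5%, and 48.1% and 74.5%. Endothelial-like cells stood at 64.0% in control and 92.1% in FA, and FA neutrophil-like cells at 88.5%.

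Too shallow to thin were 13 control and 0 FA macrophage-like cells, 1 and 8 monocyte-like, 1 and 0 dendritic-like, 6 and 29 T cell-like, 21 and 14 endothelial-like and 36 neutrophil-like cells. In proximal tubule-like cells, at median depths of 6332 and 3497 UMIs, the share was 0.0490% in control and 0.624% in FA (0.129 to 1.81), against 3.21% and 15.8% without thinning. Free RNA in the droplets can add UMIs in any class, and no class is known to lack all of these genes, so there was no reference class for it. The FA proximal tubule-like share was the lowest among the FA classes. The most loaded 5% of thinned macrophage-like cells held 24.4% of the class's core UMIs in control and 15.9% in FA.

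**Figure D5:**
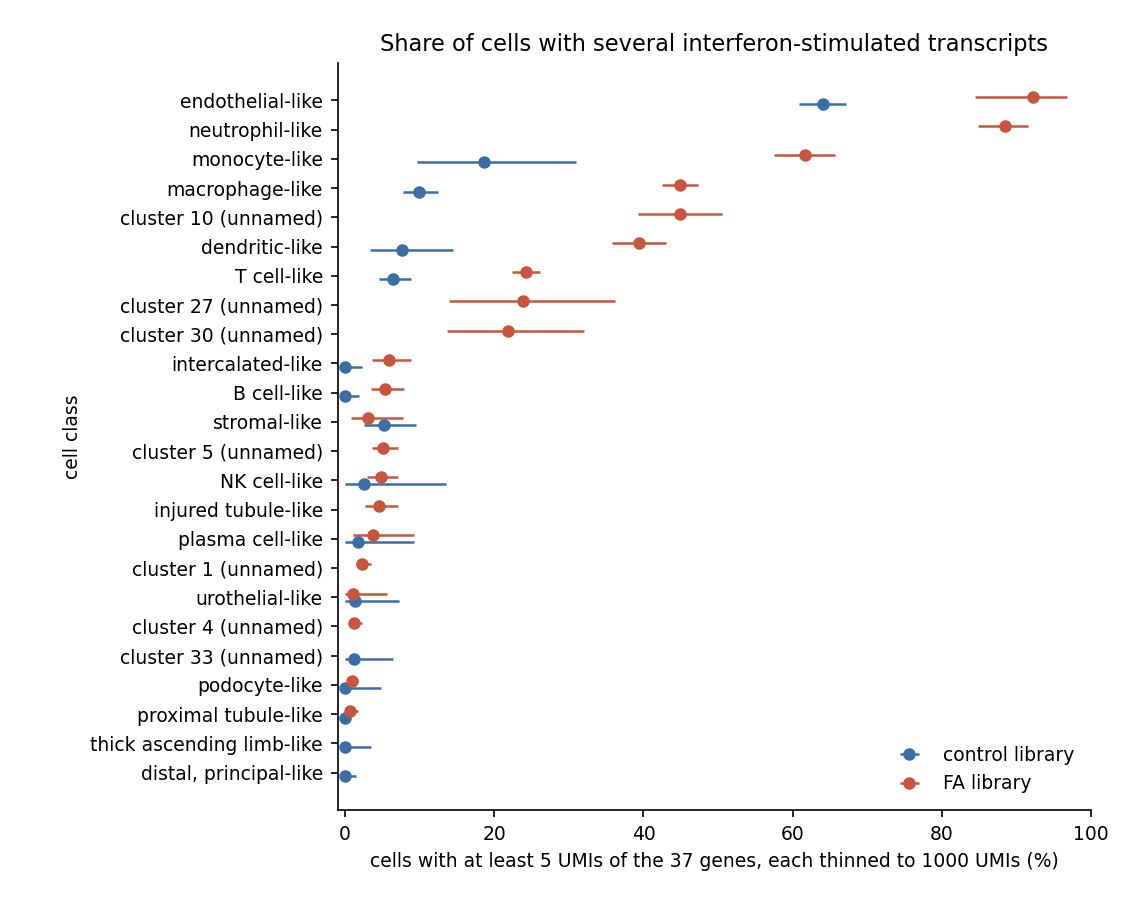
Share of cells, in percent, with at least 5 UMIs of the 37 core genes after each cell was thinned to 1000 UMIs, by cell class in the control (blue) and FA (red) library, with exact binomial 95% intervals. Endothelial-like and neutrophil-like cells lie farthest right, myeloid and T cell-like pairs are separated with FA to the right, and stromal-like and urothelial-like pairs overlap.

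Other genes of the interferon pathway were taken from a list of 94, of which 86 were above 0 in both libraries. Over the whole library 65 of the 86 were higher, against 20.4% of all genes, and 2 were lower, against 30.5%, with a median log2 ratio of 1.05. By role, 45 of 54 further interferon-stimulated genes were higher, 8 of 13 sensing genes, 6 of 7 inhibitors, 4 of 10 receptor and signalling genes and both ligands. Within classes fewer were past the fold. In macrophage-like cells 34 of 83 were higher (27% of all genes were) and 11 lower (21.8%). In T cell-like cells 31 of 80 were higher (15.3%) and 2 lower (16.7%), and in dendritic-like cells 39 of 81 (21.6%) and 7 (17.6%). In monocyte-like cells 33 of 77 were higher (17%) and 5 lower (23.4%), in endothelial-like cells 34 of 74 (16.5%) and 6 (20.7%), and in proximal tubule-like cells 39 of 55 (30.8%) and 1 (24%).

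The ligand Ifng had 538 UMIs in control and 5683 in FA (13.4 and 99.7 CPM, ratio 7.43, interval 6.80 to 8.14). T cell-like cells held it at 232.9 and 569.9 CPM (ratio 2.45), and NK cell-like cells at 395.3 CPM in 39 control cells and 1398 CPM in 476 FA cells. Ifnb1, a type I interferon, had 33 and 103 UMIs. Of these, macrophage-like cells held 25 and 53 (5.85 and 4.03 CPM) and dendritic-like cells 8 and 45 (8.30 and 8.36 CPM), so neither class was past the fold.

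Receptor and signalling genes differed less than the members. The type I receptor genes Ifnar1 and Ifnar2 had library ratios of 1.36 and 1.19, and the interferon gamma receptor genes Ifngr1 and Ifngr2 had 2.16 and 1.87. In macrophage-like cells Ifnar1 was at 154.3 and 101.1 CPM (ratio 0.655) and Ifngr1 at 396.6 and 206.8 CPM (ratio 0.521), both lower while the members were higher. The kinases Jak1, Jak2 and Tyk2 had library ratios of 1.42, 2.44 and 1.30. Il10rb, a shared subunit of interferon lambda and interleukin 10 receptors, was lower (100.7 and 59.6 CPM, ratio 0.592), and Ifnlr1 had a ratio of 0.735 (interval 0.478 to 1.13).

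Of the sensing genes Zbp1, a sensor of left-handed nucleic acid, was highest in ratio (15.4 and 93.6 CPM, ratio 6.06), followed by the endosomal receptors Tlr7 (4.18) and Tlr9 (4.05), and Mavs, the adaptor of the RNA sensors, was lowest (23.9 and 14.7 CPM, ratio 0.616), after Tlr3 (0.974) and Tbk1 (1.04). Zbp1 was higher within macrophage-like (49.6 and 164.8 CPM, ratio 3.32), endothelial-like (ratio 6.16) and monocyte-like cells (ratio 2.45). Among inhibitors Socs3 was at 56.4 and 477.3 CPM (ratio 8.46), followed by Ptpn6 (3.09) and Socs1 (2.46), and Ptpn11 (1.07) was lowest, before Ptpn2 (1.72) and Adar (1.80). Of the further interferon-stimulated genes the highest were Slfn1 (12.3), Ms4a4c (9.79) and Ifi213 (7.57), and the lowest Znfx1 (1.005), Gbp4 (1.14) and Gbp9 (1.17), the last 2 again guanylate-binding proteins.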

How the data were processed

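Single cells of control and FA kidney, 1 library of each, were captured in droplets and their transcripts counted by the authors. The deposited values are counts of UMIs per gene and barcode, whole numbers at least 0 in 1 matrix. Seurat and mm10 are named per the submitters' processing notes, and no source used here gives the aligner or how genes were counted. Gene names differed between libraries (1255 names in control alone, 2543 in FA alone), and 230 pairs of RefSeq synonyms were joined, none of them members. After joining, 1025 names still stood in control alone and 2313 in FA alone. Whether both libraries were counted against the same gene list is not known.

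Cells needed at least 200 genes, 500 UMIs and at most 50% mitochondrial UMIs, a limit that 34.9% of control and 15.7% of FA barcodes exceeded. Likely doublets were scored against simulated doublets, at a rate of 0.8% per 1000 barcodes, and 488 control and 2420 FA cells were left out. Cells were clustered on 2000 variable genes, 30 principal components and 15 neighbours with leidenalg 0.10.2 at resolution 1, in Python 3.11.15 with numpy 2.4.6 and scipy 1.17.1. Classes were named from marker lists where at least 3 markers were detected.

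UMIs were summed by library and class. Ratios of CPM carry exact conditional binomial intervals, sums exact Poisson ones and shares of cells exact binomial (Clopper-Pearson) ones, at 95%, which cover counting error only. A member or gene entered a count with at least 20 UMIs over both libraries in the class. With 1 library per group no test was run. Values are given for members by size and by the 4 highest and 4 lowest ratios per class among those with at least 50 UMIs in the higher library. Of the pathway list, ligands, receptors and signalling genes are named except 1 that is not reported here, and the 3 highest and 3 lowest of the other roles. The ratio step was tested on simulated data. The members, lists and rules were chosen with earlier results of these data known. Proteins were not used here.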

Additional observations from a re-analysis of the deposited data

Results flagged for a closer look

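In 6 cases a member was past the fold of 1.5, interval included, in 1 class and past it the other way in another. The difference between the classes was not tested in any of them, and classes in which a member had 0 UMIs in 1 library were not considered. Gbp2 was higher in stromal-like cells (10.2 CPM in control and 40.0 in FA, ratio 3.91) and lower in dendritic-like cells (ratio 0.407), a log2 difference of 3.26, and lower in macrophage-like cells (ratio 0.436), a log2 difference of 3.17. The stromal value rests on 12 and 27 UMIs.

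Ifit3 and Ifit3b, near copies whose separate values are uncertain, were higher in intercalated-like cells (ratios 19.8 and 14.2) and lower in podocyte-like cells (0.327 and 0.191), with log2 differences of 5.92 and 6.21. Ifit3 was past the fold upward, interval included, in 8 classes and Ifit3b in 3.

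Ifitm1 was higher in urothelial-like cells (ratio 4.17) and lower in stromal-like cells (ratio 0.115), a log2 difference of 5.19. It also had 0 UMIs in control and 4886 in FA dendritic-like cells, 0 and 289 in monocyte-like, 0 and 57 in T cell-like and 0 and 53 in B cell-like cells. Slfn5, a Schlafen family member, was higher in proximal tubule-like cells (ratio 15.2, from 9 and 15 UMIs) and lower in stromal-like cells (ratio 0.214), a log2 difference of 6.15. Within the stromal cluster that held cells of both libraries the ratios were 0.231 for Ifitm1, 0.676 for Slfn5 (interval 0.435 to 1.03) and 3.37 for Gbp2.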

How the results depend on the processing

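No paired analysis was possible because there was 1 library per group. The score's ratio stayed above 1 in the 12 compared classes under the alternatives listed here, apart from the proximal tubule-like class at resolution 0.5, which gave no value. Leaving out Ifitm3 alone put the stromal-like ratio at 0.974 (interval 0.894 to 1.06). The values below are its log2 ratio where it moved beyond its counting interval. Leaving out Ifi27l2a and Ifitm3 gave 1.021 in T cell-like (1.23 with them), 1.70 in dendritic-like (1.47), 0.68 in endothelial-like (0.87), 3.15 in intercalated-like (3.36), 1.17 in macrophage-like (1.498), 1.28 in monocyte-like (1.09), 1.56 in plasma cell-like (2.47), 0.069 in stromal-like (0.73) and 0.56 in urothelial-like cells (1.01). With likely doublets kept it was 1.36 in dendritic-like, 1.54 in macrophage-like, 1.01 in monocyte-like, 2.19 in plasma cell-like, 1.48 in podocyte-like (1.04 without), 2.39 in proximal tubule-like and 1.76 in stromal-like cells. Giving every cell equal weight put it at 0.73 in endothelial-like, 3.64 in intercalated-like, 1.60 in macrophage-like, 0.48 in stromal-like and 0.82 in urothelial-like cells. With members and pathway genes allowed in clustering it was 3.82 in intercalated-like, 1.52 in macrophage-like and 0.84 in stromal-like cells. A stricter cell filter gave 1.45 in macrophage-like and 0.64 in stromal-like cells, and UMIs of genes that are not mitochondrially encoded gave 1.45 in macrophage-like cells. That scaling shifted the median log2 ratio of all genes by -0.12 over the whole library and by -0.19 in intercalated-like cells. At resolution 0.5 the proximal tubule-like class kept 3 FA cells. The cause of these moves was not tested.

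Counts of members moved as follows. At a fold of 2 the lower members were 0 in B cell-like, monocyte-like, proximal tubule-like and urothelial-like cells, 1 in macrophage-like and 2 in stromal-like cells, and 10 were higher in endothelial-like cells. With 1 UMI in each library as the only minimum, which leaves out members at 0 in 1 library, 10 members were higher in podocyte-like cells. Without mitochondrial UMIs 2 were lower in dendritic-like cells. Over every deposited barcode 1 member was lower. Some alternatives were chosen after seeing the data: without the endothelial class 0 members were lower over the library, cells with a class marker UMI gave a log2 ratio of 3.66 in intercalated-like cells, and the stromal cluster with cells of both libraries gave 1.49 and 1 lower member.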

Other observations

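Among cells that received no class name, cluster 10 (732 FA cells, median 888 UMIs, led by Mir6236, Tcirg1 and Slc15a3) had a core sum of 4755 CPM, close to the 4637 CPM of FA macrophage-like cells, and its Slfn4 level was 734 CPM, below the 1750 CPM of neutrophil-like cells alone. Its thinned share of cells with at least 5 core UMIs was 44.9% over 312 cells, with 420 too shallow to thin. Cluster 27 (221 FA cells, led by the T cell genes Cd6, Slamf1 and Cd5) had a core sum of 3269 CPM, beside 3455 CPM in FA T cell-like cells. Cluster 5 (915 FA cells, led by Fabp1, Cda and Gsta2) was nearest to the injured tubule but stayed unnamed. Its naming score was 0.999, and no injured tubule marker was among its leading genes. Its core sum was 1454 CPM, beside 1562 CPM in injured tubule-like cells. A score below 1 was accepted only where a marker of the class was among the leading genes. Cluster 1 (1309 FA cells, led by Lars2, Gm47283 and Syne2) had a core sum of 1162 CPM. Cluster 4 (1100 FA cells, led by Spp1, Fgg and Fgb) had the proximal tubule as its nearest class and a core sum of 924.1 CPM.

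The control-only stromal cluster of 53 cells, with Fbln5 and Itih5 among its leading genes, had a score of 5806 CPM and a core sum of 2741 CPM, between the control endothelial-like (6072 CPM) and macrophage-like (2067 CPM) core sums.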
